A study of Mus musculus with 2 samples.

Results

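The genes described here are 8 genes of the type 1 immune program (Tbx21, Eomes, Ifng, Stat4, Il12rb2, Il18r1, Il2rb and Cxcr3), taken by symbol from the 28692 genes listed in the count matrices. They were read in single-cell RNA sequencing libraries of CD45+ leukocytes resident in the adipose tissue of adult wild-type C57BL/6 mice. For 1 week the mice of 1 library received normal chow and those of the other a ketogenic diet, which makes the liver turn fat into ketone bodies. Cells inside blood vessels had been marked by intravenous labelling and left out, and how many mice went into each library is not stated in the labels. With 1 library per diet there is no replicate check and no test between diets. Square brackets give 95% intervals, which cover counting error only.

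Type 1 immunity is the arm of the immune system that answers intracellular microbes and tumours, and in obese adipose tissue it is known for driving inflammation. Interleukin 12 and interleukin 18, made by myeloid cells, act on lymphocytes through receptors that hold the products of Il12rb2 and Il18r1. STAT4 carries the interleukin 12 signal to the nucleus, the T-box factors T-bet (Tbx21) and eomesodermin (Eomes) switch on Ifng, and interferon-gamma then acts on the surrounding tissue. Il2rb encodes the chain shared by the receptors for interleukin 2 and interleukin 15, and Cxcr3 encodes the receptor that draws these cells to the interferon-induced chemokines Cxcl9 and Cxcl10.

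In the mouse build GRCm38 (mm10), Tbx21 spans 97098071 to 97115331 of chromosome 11 (minus strand) and Eomes 118478212 to 118486132 of chromosome 9 (plus strand). Ifng spans 118441046 to 118445892 of chromosome 10 and Stat4 51987148 to 52107189 of chromosome 1, both on the plus strand. Il12rb2 spans 67291318 to 67376188 of chromosome 6 (minus strand) and Il18r1 40465552 to 40500854 of chromosome 1 (plus strand). Il2rb spans 78479256 to 78495271 of chromosome 15 and Cxcr3 101731535 to 101734269 of chromosome X, both on the minus strand. Annotated genes overlap Eomes (Gm33460), Ifng (Gm49751), Stat4 (Gm28177 and Gm3940) and Il12rb2 (Serbp1). Of these, Gm33460, Gm3940 and Serbp1 lie on the opposite strand, and Gm49751 and Gm28177 on the same strand. Whether strand was used in counting is not given in the sources used here, so how reads from such overlaps were assigned is not known.

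The promoters of the cytokine, receptor and chemokine receptor genes are shown because these genes are textbook targets of T-box, STAT and RUNX factors. RefSeq entries for GRCm38.p6, from 250 bases before to 50 after a start site, were matched for 7 of the 8 genes, all but Il2rb, with 10 promoters in all. Searched on either strand were TCACAC (the T-box core, in 14.5% of 32817 promoters of the same length), TTCNNNGAA (STAT, in 8.29%) and TGTGGT (RUNX, in 16.8%). Capitals mark every match, with a RUNX match on the other strand reading ACCACA, and each sequence runs 5′ to 3′ on the strand of its gene.
Ifng promoter, chr10:118440796-118441095 on the plus strand: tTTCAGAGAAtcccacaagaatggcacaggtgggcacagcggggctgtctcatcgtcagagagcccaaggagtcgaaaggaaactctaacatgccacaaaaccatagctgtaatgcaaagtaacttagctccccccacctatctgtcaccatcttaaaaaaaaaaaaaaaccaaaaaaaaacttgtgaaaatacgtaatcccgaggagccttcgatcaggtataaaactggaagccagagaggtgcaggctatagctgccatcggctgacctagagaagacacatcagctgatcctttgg
Il12rb2 promoter, chr6:67376139-67376438 on the minus strand: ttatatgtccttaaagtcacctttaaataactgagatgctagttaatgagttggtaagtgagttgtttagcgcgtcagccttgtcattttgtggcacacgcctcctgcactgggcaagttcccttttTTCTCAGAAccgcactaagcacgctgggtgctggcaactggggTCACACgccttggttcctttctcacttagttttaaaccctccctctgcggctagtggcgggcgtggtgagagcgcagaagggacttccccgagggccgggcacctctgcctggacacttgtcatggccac
Il18r1 promoter at the third of 3 listed start sites, chr1:40465756-40466055 on the plus strand: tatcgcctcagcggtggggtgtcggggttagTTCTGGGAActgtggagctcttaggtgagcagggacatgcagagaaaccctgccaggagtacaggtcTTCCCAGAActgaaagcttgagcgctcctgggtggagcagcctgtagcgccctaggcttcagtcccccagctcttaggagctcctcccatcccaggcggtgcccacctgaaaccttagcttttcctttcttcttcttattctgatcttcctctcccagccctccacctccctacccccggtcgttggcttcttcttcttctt
Cxcr3 promoter, chrX:101734098-101734397 on the minus strand: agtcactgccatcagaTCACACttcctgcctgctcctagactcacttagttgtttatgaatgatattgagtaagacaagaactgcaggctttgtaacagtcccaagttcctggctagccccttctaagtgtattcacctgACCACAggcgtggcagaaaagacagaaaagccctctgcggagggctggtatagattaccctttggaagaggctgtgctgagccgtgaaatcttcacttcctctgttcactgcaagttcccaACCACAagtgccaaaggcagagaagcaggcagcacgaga

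The T-box core was found in the Il12rb2 promoter at base -80 from the start site and in the Cxcr3 promoter at base -234. The STAT motif was found at base -249 in Ifng, at base -123 in Il12rb2 and at bases -219 and -152 in Il18r1. The Cxcr3 promoter held the RUNX motif at bases -110 and 12, and a second start site of Il18r1 held it at base 22. None of the 3 motifs was found in the windows of Tbx21, Eomes and Stat4 or at the first start site of Il18r1. Of the 10 promoters, 2 held the T-box core, 3 the STAT motif and 2 the RUNX motif, beside 14.5%, 8.29% and 16.8% of all promoters. With so few promoters no excess is read. A match describes the sequence and shows no binding.

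The chow library held 4545 cells and 21570910 UMIs (unique molecular identifiers, each standing for 1 captured transcript), and the ketogenic library 5614 cells and 26041785 UMIs. The authors' table placed 4458 and 5559 of them in 13 clusters numbered from 0, and UMIs were summed per cluster and library and scaled to CPM, the usual scale on which every cluster and library has the same total. By marker genes, cluster 0 was ILC2-like (group 2 innate lymphoid cells), 1 NK-like (natural killer cells), 2 T-like, 7 Treg-like (regulatory T cells) and 11 γδ T-like. Clusters 3, 5, 6 and 12 were macrophage-like, cDC2-like, cDC1-like (conventional dendritic cells) and mature DC-like, 9 was B and plasma-like, and 10 held cycling cells. Cluster 4 stayed unnamed because the leading genes mixed Ly49 receptors and T cell receptor components (Klra1, Klra7, Ly6c2, Cd3d), and cluster 8 (Retnla, Fcrls) stayed unnamed too. Clusters 0, 1, 2, 4, 7 and 11 are called lymphoid below. Treg-like cells carried ILC2 markers too: the 10 of that list summed to 3840 and 3499 CPM there, against 5359 and 5151 CPM in ILC2-like cells. Transcripts of other cell types were found in each cluster at levels that differed between the libraries, and whether they came from free RNA or doublets was not tested. The 10 macrophage markers summed to 643 to 1514 CPM in the lymphoid clusters on chow and to 128 to 312 CPM on the ketogenic diet. The 8 CD4 T cell markers summed to 66.4 CPM in cDC1-like cells on chow and to 205 CPM on the ketogenic diet. The libraries shared 41 cell barcodes, 3 of which lay in the same cluster in both.

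The genes were carried mainly by NK-like cells, T-like cells and cluster 4. These clusters held 27.6% of clustered chow cells and 43.1% of clustered ketogenic cells, and they gave 78.9% and 81.5% of the Ifng UMIs, 74.9% and 78.4% of the Tbx21 UMIs and 79.5% and 86.4% of the Eomes UMIs. For Stat4 the shares were 51.2% and 53.7%, and for Cxcr3 64.5% and 69.3%. A sum over all clusters therefore moves with the share of these cells, and the diets are compared within clusters below.

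Among the receptors and their signal carrier, each gene had a pattern of its own. Il12rb2, the signalling chain of the interleukin 12 receptor, stood at 22.8 CPM [16.4–30.9] on chow and 30.9 CPM [25.4–37.2] on the ketogenic diet in NK-like cells. In cluster 4 it stood at 19.9 CPM [11.1–32.8] and 22.2 CPM [16–29.9], and in every other cluster below 10 CPM. The intervals of NK-like cells and cluster 4 overlapped. In γδ T-like cells no Il12rb2 UMI was found in either library, where 3 UMIs would have been 15.8 CPM on chow and 4.397 CPM on the ketogenic diet. Stat4 was spread more widely than Il12rb2. It was at 127 CPM [111–145] and 132 CPM [120–144] in NK-like cells and at 109 CPM [86.6–135] and 91.2 CPM [78.3–106] in cluster 4. ILC2-like cells, in which Tbx21 was at 4.20 and 5.73 CPM, held Stat4 at 71.1 CPM [60.7–82.6] and 89.7 CPM [81.0–99.0], a range that overlapped that of T-like cells at 70.8 and 81.8 CPM. Mature DC-like cells held 43.6 CPM [25.4–69.9] and 34.7 CPM [17.9–60.6] from 17 and 12 UMIs.

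Il18r1, the ligand-binding chain of the interleukin 18 receptor, was the exception in which γδ T-like cells came first. These cells held 284 CPM [214–371] on chow and 248 CPM [212–288] on the ketogenic diet, apart from cluster 4 at 153 CPM [126–183] and 79.9 CPM [67.8–93.5]. NK-like cells were level between the libraries at 113 CPM [98.4–130.1] and 112 CPM [102–124]. T-like cells held 103 CPM [79.3–131] and 57.8 CPM [49.2–67.4]. Il2rb was highest in NK-like cells, at 430 CPM [400–461] and 529 CPM [505–553], with cluster 4 next at 332 CPM [292–376] and 454 CPM [425–485]. The ranges of the 2 libraries overlapped between these clusters, while T-like cells at 162 and 255 CPM lay below. Treg-like cells held 132 and 179.6 CPM, γδ T-like cells 126 and 123 CPM and ILC2-like cells 85.3 and 74.8 CPM of Il2rb.

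**Figure D1:**
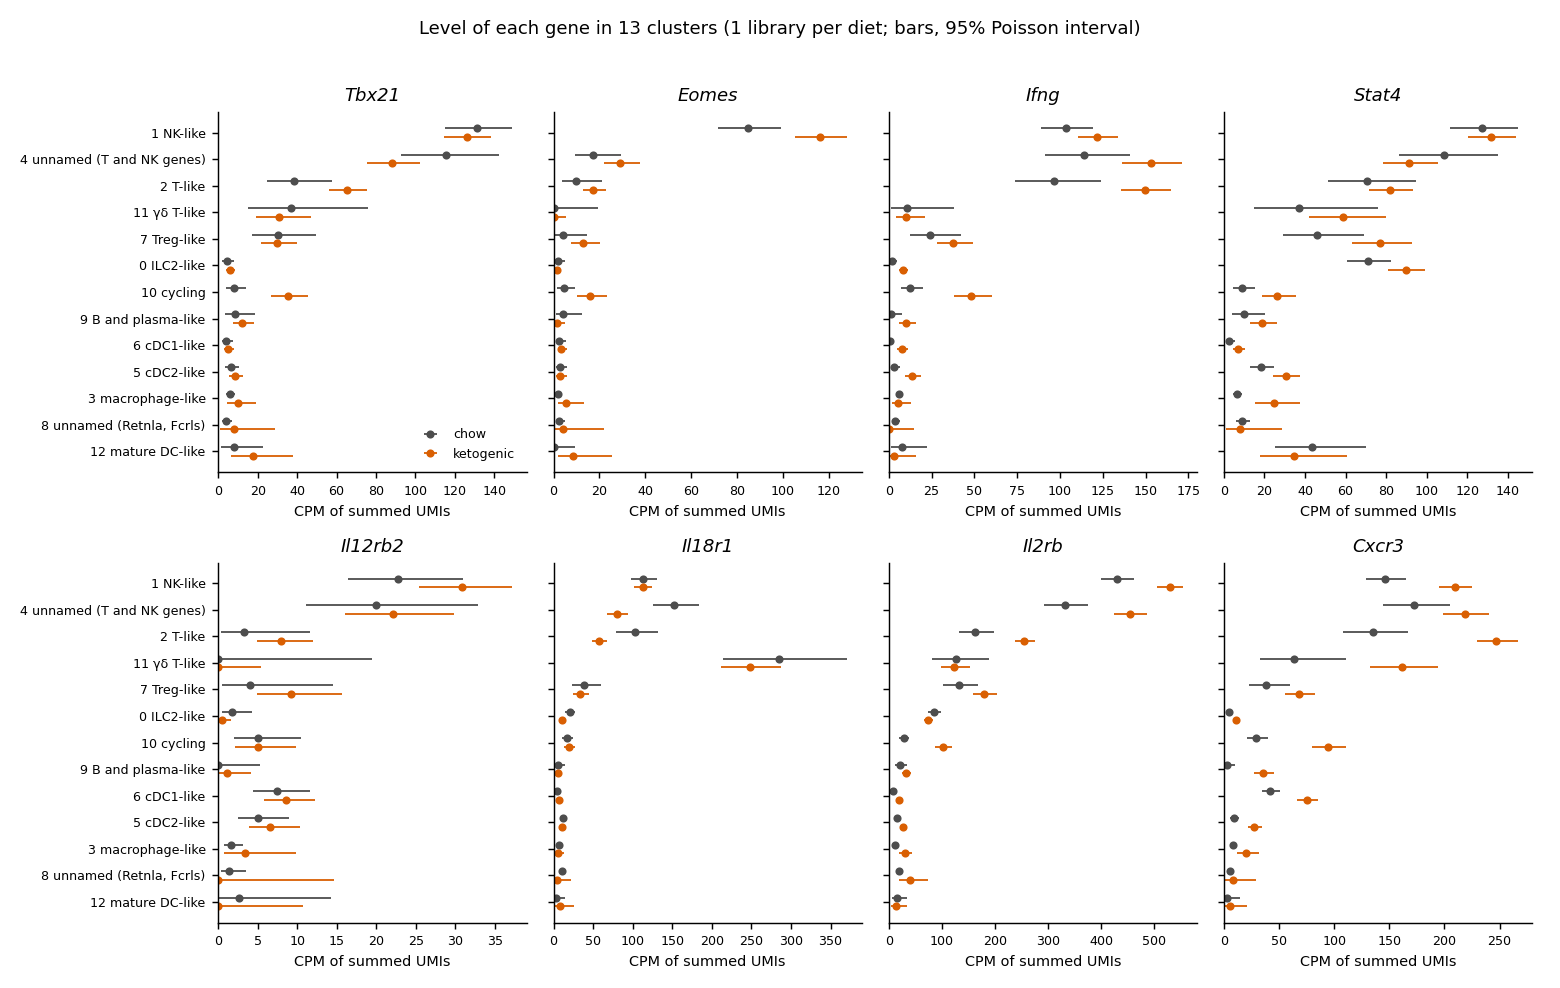
Level of each of the 8 genes (horizontal axis, CPM of summed UMIs) in the 13 clusters (rows), with chow in grey, the ketogenic diet in orange and bars for the 95% Poisson interval. Tbx21, Ifng, Il2rb and Cxcr3 are highest in the rows of clusters 1, 4 and 2, Eomes in cluster 1 at 84.5 and 116 CPM, and Il18r1 in cluster 11 at 284 and 248 CPM.

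The T-box factors differed from each other in range. Tbx21 stood at 131 CPM [115–149] from 236 UMIs on chow and 126 CPM [115–138] from 453 UMIs on the ketogenic diet in NK-like cells, so the libraries were level. Cluster 4 followed at 115 CPM [92.5–142] and 88.1 CPM [75.4–102], then T-like cells at 38.6 CPM [24.7–57.4] and 65.3 CPM [56.1–75.5]. γδ T-like and Treg-like cells held about the same level, 36.9 and 30.8 CPM against 30.1 and 29.7 CPM, within each other's counting error. Eomes was highest in NK-like cells, at 84.5 CPM [71.6–99.1] from 152 UMIs and 116 CPM [105–128] from 418 UMIs. Cluster 4, next in order, held 17.3 CPM [9.19–29.5] and 28.9 CPM [21.8–37.5], and T-like cells 9.65 CPM [3.54–21.0] and 17.2 CPM [12.7–22.8]. No Eomes UMI was found in the 59 chow and 170 ketogenic γδ T-like cells, although these cells held 7 and 21 UMIs of Tbx21. In ILC2-like and cDC1-like cells Tbx21 lay between 4.10 and 5.73 CPM and Eomes between 1.61 and 3.45 CPM.

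Ifng and Cxcr3, a product and a target gene of the T-box factors, reached similar levels in 3 clusters where Eomes did not. Ifng stood at 114 CPM [91.3–141] and 153 CPM [136–172] in cluster 4, at 96.5 CPM [73.7–124] and 149.6 CPM [136–165] in T-like cells and at 103 CPM [89.1–119] and 122 CPM [111–134] in NK-like cells. These ranges overlapped, so no order among the 3 clusters is read. Treg-like cells at 24.1 CPM [12.4–42.1] and 37.5 CPM [28.1–49] and cycling cells at 12.3 CPM [7.18–19.7] and 48.3 CPM [38.1–60.4] came below them, with overlapping ranges. γδ T-like cells held 2 and 7 Ifng UMIs, or 10.5 and 10.3 CPM, close to the 3.17 and 13.8 CPM of cDC2-like cells. Cxcr3 was at 173 CPM [144–205] and 219 CPM [198–240] in cluster 4, at 135 CPM [108–167] and 247 CPM [229–266] in T-like cells and at 146 CPM [129–165] and 209 CPM [195–225] in NK-like cells. Among myeloid clusters, cDC1-like cells stood out for Cxcr3 with 41.8 CPM [34.1–50.8] and 75.2 CPM [66.4–84.9], against 9.07 CPM [5.54–14.0] and 27.5 CPM [21.7–34.4] in cDC2-like cells.

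Counted per cell after thinning every cell to 1000 UMIs, the share of NK-like cells with a Tbx21 UMI was 12.3% [9.99–14.9] on chow and 11.9% [10.1–14.1] on the ketogenic diet. The shares without thinning were 26.2% and 32.4%, at median depths of 2296.5 and 3147 UMIs. In cDC1-like cells, a cell type that should lack the transcript, the thinned shares were 0.390% and 0.405% at median depths of 7906 and 9922 UMIs. Eomes was found in 8.03% [6.14–10.2] and 10.9% [9.02–12.9] of thinned NK-like cells, against 0.207% and 0.308% of cDC1-like cells. Ifng was found in 9.49% and 10.6% of thinned NK-like cells, in 8.15% and 11.4% of T-like cells and in 11.2% and 12.2% of cluster 4, against 0.104% and 0.660% of cDC1-like cells. Il18r1 was found in 24.9% and 22.6% of thinned γδ T-like cells, against 0.523% and 0.571% of cDC1-like cells.

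Tbx21 and Eomes UMIs were seldom seen in the same thinned cell. In NK-like cells 0.938% [0.390–1.98] of chow and 1.15% [0.585–1.97] of ketogenic cells held both, 11.4% and 10.8% held Tbx21 alone and 7.09% and 9.73% held Eomes alone. Among NK-like cells with a Tbx21 UMI, 7.62% and 9.60% also held an Eomes UMI, close to the 8.03% and 10.9% of all NK-like cells. Without thinning 4.28% and 8.57% of NK-like cells held both. An Ifng UMI was found in 10.6% and 13.8% of thinned NK-like cells with a Tbx21 UMI, against 9.49% and 10.6% of all NK-like cells. Those with a Tbx21 UMI numbered about 89 and 127 after thinning, and T-like cells with one were too few on chow, about 10, for such a share.

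Diet differences were read as ratios of CPM, ketogenic over chow, and a gene counted as past the fold at 1.5-fold or more where the cluster held at least 20 of its UMIs, both libraries together. Of the 48 pairs of a gene and a lymphoid cluster, 42 had that many. Of these, 29 were above equality, 15 were at least 1.5-fold higher and 3 at least 1.5-fold lower on the ketogenic diet. Over all genes with enough UMIs, 10.5% to 17.9% were that much higher in the 6 clusters and 10.1% to 12.6% lower. The 15 became 5 with 5 added to each count, 5 at a fold of 2 and 11 with median scaling. Cxcr3 was above equality, with the interval above 1, in NK-like, T-like, Treg-like and γδ T-like cells and cluster 4. In ILC2-like cells its ratio was 2.43 [1.25–5.18] from 11 and 49 UMIs, and the log2 ratio turned from 1.23 to -0.63 when 10% of the cluster total was subtracted with the profile of the whole library. Il18r1 was below equality in all 6, but in NK-like cells only at 0.991 [0.835–1.18]. Its interval lay below 1 in T-like and ILC2-like cells and cluster 4. In ILC2-like cells its ketogenic level, 11.01 CPM, was near the 10.5 CPM of cDC2-like cells.

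T-like cells had the most genes past the fold, 6 of 8 higher and 1 lower, where 16.6% and 11.1% of the 8088 genes with enough UMIs in that cluster were past it in these directions. Cxcr3 was 1.83-fold [1.46–2.32] higher, Tbx21 1.69-fold [1.10–2.71], Il2rb 1.57-fold [1.27–1.95] and Ifng 1.55-fold [1.18–2.07]. Eomes at 1.78-fold [0.762–5.10] and Il12rb2 at 2.45-fold [0.603–21.5] rested on 6 and 2 chow UMIs, and their intervals held 1. With 5 added to each count the log2 ratio of Il12rb2 turned from 1.005 to -0.22. Il18r1 stood at 0.561 of its chow level [0.417–0.762] and Stat4 at 1.16 [0.834–1.63]. The median log2 ratio of the 8 genes was 0.69, against 0.07 for all genes with enough UMIs. The CD4 and CD8 T cell marker lists moved the same way in this cluster, from 4432 to 5899 CPM and from 3705 to 4952 CPM. These lists share Cd3e, Cd3d, Trac, Trbc2 and Lef1, so they are not separate evidence, and their part in the result was not tested. When cells under 2500 UMIs were left out, the log2 ratio of Ifng became 1.17 in place of 0.62 and that of Cxcr3 1.33 in place of 0.86. That cut lies between the median depths of chow and ketogenic T-like cells, 2374 and 2993 UMIs, so it removed a larger share of the chow cells.

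In NK-like cells none of the 8 genes was past the fold, where 10.5% of 9028 genes were higher and 10.4% lower. Cxcr3 was 1.43-fold [1.24–1.65] higher, Eomes 1.38-fold [1.14–1.67] and Il2rb 1.23-fold [1.13–1.34], each beyond counting error, while Tbx21 stood at 0.960 [0.819–1.13]. Stat4 at 1.04 [0.882–1.22] and Il18r1 at 0.991 [0.835–1.18] were also level, and the ratio of Ifng was 1.18 [0.990–1.41].

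In cluster 4 Eomes was past the fold, at 1.67-fold [0.904–3.33] from 13 and 56 UMIs, and Il18r1 was past it on the lower side at 0.523 [0.409–0.672]. In all, 1 of 8 genes was higher and 1 lower, where 13.4% and 10.2% of 7511 genes were. Il2rb at 1.37-fold [1.19–1.58], Ifng at 1.34-fold [1.05–1.73] and Cxcr3 at 1.27-fold [1.04–1.55] were higher beyond counting error. Tbx21 was at 0.763 [0.586–0.9998], at the edge of counting error. The NK marker list stood at 1045 CPM on chow and 1361 CPM on the ketogenic diet in this cluster, and its part in these differences was not tested. With cells under 2500 UMIs left out, the log2 ratio of Ifng here was 1.21 in place of 0.42, and that of Il12rb2 1.17 in place of 0.12. Median depths in cluster 4 were 2475 UMIs on chow and 3388 on the ketogenic diet, so the cut removed a larger share of the chow cells.

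**Figure D2:**
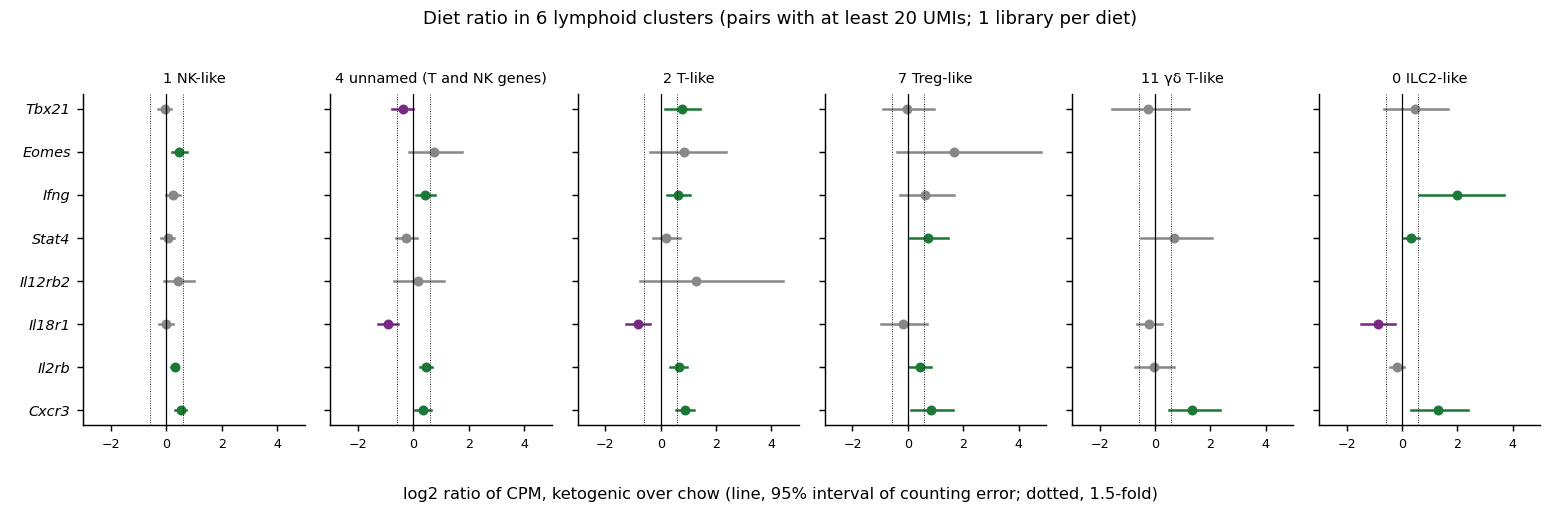
Log2 ratio of CPM, ketogenic over chow (horizontal axis), of the 8 genes (rows) in 6 lymphoid clusters (panels), for the 42 pairs with at least 20 UMIs. Points with lines give the ratio of counts and its 95% interval of counting error, green where it lies above 1, purple where it lies below, and dotted lines mark 1.5-fold. Cxcr3 lies to the right of equality and Il18r1 to the left in the 6 panels, but the Cxcr3 point of ILC2-like cells, at 1.23, turns to -0.63 when 10% free RNA is subtracted. The Il18r1 point of NK-like cells, a ratio of 0.991, lies almost on equality.

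In γδ T-like cells Cxcr3 alone of the genes had an interval that lay off equality. It stood at 63.2 CPM [32.7–110.4] from 12 UMIs on chow and 161 CPM [133–194] from 110 UMIs on the ketogenic diet, a ratio of 2.55 [1.403–5.09]. In all, 2 of the 5 genes with enough UMIs were past the fold and higher, Cxcr3 and Stat4 at 1.59 [0.705–4.21], and 0 were lower, where 17.9% and 12.6% of 4659 genes were. Il18r1 at 0.871 [0.638–1.21] and Il2rb at 0.974 [0.613–1.60] were within counting error of equality. Among γδ T-like cells with a Trdc UMI, Trdc being part of the delta chain that defines these receptors, Cxcr3 stood at 71.9 and 177 CPM, a ratio of 2.47 [1.26–5.39]. In the 14 and 74 cells without one the ratio was 3.63 [0.9498–30.9], from 2 and 46 UMIs. Cells with a Trdc UMI made up 76.3% of the cluster on chow and 56.5% on the ketogenic diet. Among them Ly6c2 had 2 and 43 UMIs, a ratio of 8.29 [2.16–70.7], and Gzmb 0 and 23 UMIs, and whether these cells are of the same kind in the 2 libraries was not tested.

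In Treg-like cells 4 of 7 genes were past the fold and higher and 0 lower, where 17.5% and 10.4% of 6742 genes were. Cxcr3 at 1.78-fold [1.08–3.08] and Stat4 at 1.67-fold [1.06–2.74] exceeded counting error. Ifng at 1.56-fold [0.821–3.20] and Eomes at 3.17-fold [0.759–28.2] did not. Eomes had 2 and 18 UMIs there, so it met the minimum of 20 UMIs mainly through the ketogenic library. The CD4 T cell markers moved from 2585 to 3648 CPM and the CD8 T cell markers, a list that shares genes with them, from 1907 to 2817 CPM in Treg-like cells. Their part in these differences was not tested. In ILC2-like cells 2 of 6 genes were higher and 1 lower, where 11.0% and 10.1% of 9274 genes were. Those were Ifng, at 2.10 CPM from 5 UMIs and 8.26 CPM from 36, Cxcr3, at 4.62 and 11.2 CPM, and Il18r1, at 20.2 and 11.01 CPM, a ratio of 0.546 [0.358–0.832]. The Ifng and Cxcr3 levels of ILC2-like cells were no higher than those of cDC2-like cells, 3.17 and 13.8 CPM for Ifng and 9.07 and 27.5 CPM for Cxcr3, so neither expression nor a diet difference is read from them. Il18r1 stood at 11.8 and 10.5 CPM in cDC2-like cells. The ketogenic ILC2-like level was close to this, so the size of its diet ratio is not read either.

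Outside the lymphoid clusters, Cxcr3 stood at 41.8 and 75.2 CPM in cDC1-like cells, 1.80-fold [1.43–2.28] higher on the ketogenic diet. In cycling cells it was at 29.0 and 94.1 CPM, a ratio of 3.24 [2.27–4.72]. It was at 8.07 and 20.2 CPM in macrophage-like cells, 9.07 and 27.5 CPM in cDC2-like cells and 2.83 and 35.3 CPM in B and plasma-like cells. No diet difference of Cxcr3 is read from these 3 clusters, since levels up to those of cDC2-like cells were not read above and the B and plasma-like chow value rests on 2 UMIs. In cDC1-like cells 4 of 7 genes were past the fold and higher and 0 lower, where 12.1% and 8.97% of 8605 genes were. Among them Ifng stood at 0.820 CPM from 2 UMIs and at 7.75 CPM, and Il2rb at 8.61 and 19.8 CPM. Both genes lay below their levels in cDC2-like cells, 3.17 and 13.8 CPM for Ifng and 15.4 and 27.5 CPM for Il2rb, so no diet difference is read from them. The CD4 T cell markers moved from 66.4 to 205 CPM in the same cDC1-like cells. In cycling cells 6 of 7 genes were higher, where 17.1% of 8071 genes were, and 0 lower, where 13.4% were, among them Tbx21 from 7.98 to 35.1 CPM, Ifng from 12.3 to 48.3 CPM and Il2rb from 28.3 to 102 CPM. The CD4 T cell markers moved from 432 to 1638 CPM, the NK markers from 225 to 578 CPM and the macrophage markers from 2740 to 816 CPM in the cycling cluster. More lymphocytes among the cycling cells and more of these transcripts per lymphocyte cannot be told apart in these sums. In cDC2-like cells 4 of 7 genes were higher and 0 lower (12.4% and 8.77% of 8594 genes), and in macrophage-like cells 4 of 6 and 0 (15.5% and 12.8% of 8884). The CD4 T cell markers moved from 101 to 407 CPM in cDC2-like cells, from 123 to 238 CPM in macrophage-like cells and from 73.7 to 420.1 CPM in B and plasma-like cells, and their part was not tested. In B and plasma-like cells 3 of 4 were higher and 0 lower, in a cluster where 43.2% of 6385 genes were higher and 5.03% lower. Cluster 8 had 1 of 3 higher and 1 lower (14.5% and 20.7% of 7418 genes), and mature DC-like cells 0 of 1 either way (15.3% and 13.5% of 3206).

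NK-like cells, T-like cells and cluster 4 each hold more than 1 kind of cell, so each was split by further transcripts. NK-like cells were split by UMIs of 4 Ly49 genes (Klra3, Klra4, Klra8 and Klra9), receptors for MHC class I whose near-identical members may share reads. Cells with a Ly49 UMI numbered 497 on chow and 794 on the ketogenic diet, and cells without one 227 and 268. Eomes was 3.16-fold [1.98–5.27] higher with a Ly49 UMI on chow, at 110 CPM against 34.8 CPM. Under the ketogenic diet the ratio was 3.13 [2.27–4.41], at 141 CPM against 45.1 CPM. The same split left Ifng level, at 102 against 106 CPM and 121.6 against 122 CPM, and Stat4 level too. Tbx21 leaned the other way, at 0.883 [0.673–1.16] on chow and 0.773 [0.632–0.9503] on the ketogenic diet. Cxcr3 was also lower in cells with a Ly49 UMI, at 0.738 [0.573–0.953] and 0.841 [0.718–0.989]. Median depths were close, 2254 against 2451 UMIs on chow and 3114 against 3322 on the ketogenic diet. Within cells with a Ly49 UMI the diet ratio of Eomes was 1.29 [1.05–1.58], and within those without one 1.30 [0.752–2.31]. The Cxcr3 ratio was 1.53 [1.28–1.84] with a Ly49 UMI and 1.34 [1.06–1.71] without.

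T-like cells were split into those with a UMI of Cd8a or Cd8b1 and none of Cd4 (46 chow and 206 ketogenic cells) and those with Cd4 and neither Cd8 gene (56 and 212 cells). Under the ketogenic diet Eomes stood at 42.5 CPM in Cd8 cells and 9.24 CPM in Cd4 cells, a ratio of 4.601 [1.99–12.4]. The Cd8 level was close to the 45.1 CPM of ketogenic NK-like cells without a Ly49 UMI. Under chow 4 Eomes UMIs were found in Cd8 cells and 0 in Cd4 cells. Tbx21 did not separate these cells, at 75.8 and 71.3 CPM on the ketogenic diet, a ratio of 1.06 [0.719–1.57], and neither did Ifng, at 146 and 139 CPM, a ratio of 1.05 [0.800–1.39]. Between the diets Ifng moved from 28.4 to 146 CPM in Cd8 cells, a ratio of 5.15 [1.96–19.2] that rests on 4 chow UMIs, and from 80.5 to 139 CPM in Cd4 cells, a ratio of 1.72 [0.924–3.55]. In the 129 and 392 T-like cells with neither transcript Ifng was at 138 and 150.0 CPM, a ratio of 1.09 [0.784–1.55]. Whether these ratios differ from each other was not tested. In the same Cd8 cells Gzma was at 220 and 45.2 CPM, a ratio of 0.205 [0.123–0.346], and Gzmb at 35.5 and 134 CPM, a ratio of 3.78 [1.57–11.9] from 5 chow UMIs, and whether the Cd8 cells of the libraries are of the same kind was not tested. Cxcr3 was higher on the ketogenic diet in all 3 sets, at 2.36-fold [1.37–4.40] in Cd8 cells, 1.52-fold [1.01–2.38] in Cd4 cells and 1.70-fold [1.24–2.40] in cells with neither.

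Cluster 4 was split into 44 chow and 108 ketogenic cells with a Trdc UMI and 225 and 407 cells without. Ifng was the same in each, at 153 and 153 CPM on the ketogenic diet (ratio 0.999 [0.746–1.32]) and at 119 and 113 CPM on chow. Il18r1 was lower on the ketogenic diet in each, at 169.5 and 69.3 CPM with a Trdc UMI (ratio 0.409 [0.224–0.763]) and at 149.5 and 82.8 CPM without (ratio 0.554 [0.421–0.731]). Tbx21 moved from 161 to 78.9 CPM with a Trdc UMI, a ratio of 0.490 [0.271–0.912], and from 107 to 90.7 CPM without, a ratio of 0.847 [0.629–1.15]. The cells with a Trdc UMI also differed in NK genes between the libraries: Klra4 had 1 and 55 UMIs (8.48 and 132 CPM), Klra8 0 and 46 UMIs and Gzma 3 and 117 UMIs (25.4 and 279.7 CPM). Whether these cells are of the same kind in the 2 libraries was not tested.

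**Figure D3:**
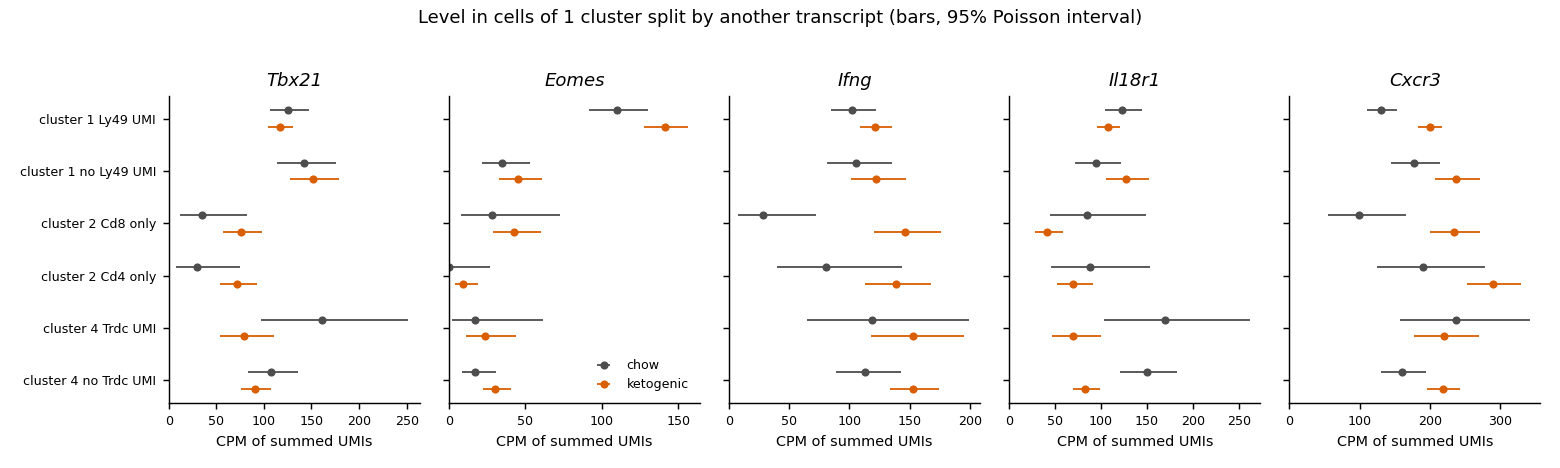
Level of 5 of the genes (horizontal axis, CPM of summed UMIs) in NK-like cells (cluster 1), T-like cells (cluster 2) and cluster 4, split by UMIs of Ly49 genes, of Cd8 or Cd4, or of Trdc (rows). Grey is chow, orange the ketogenic diet, and bars are 95% Poisson intervals. Eomes separates the rows of cluster 1 and, on the ketogenic diet, those of cluster 2. Ifng is close between the paired rows on the ketogenic diet, at 121.6 and 122 CPM in cluster 1, 146 and 139 CPM in cluster 2 and 153 and 153 CPM in cluster 4. The chow rows of cluster 2 rest on 4 and 0 Eomes UMIs, with Ifng at 28.4 and 80.5 CPM, a ratio of 0.352 [0.0818–1.19].

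Of the cytokines and chemokines that these receptors bind, Il12b, Il18, Il15 and Cxcl9 were highest in myeloid clusters, Il2 in T-like cells and Cxcl10 in Treg-like cells, by the mean of the libraries. Il12a, a subunit of interleukin 12, was highest in another cluster than Il12b, in cDC2-like cells. Il12b, the subunit shared by interleukin 12 and interleukin 23, was highest in mature DC-like cells, at 53.9 CPM [33.4–82.4] from 21 UMIs in 60 chow cells and 251 CPM [201–310] from 87 UMIs in 49 ketogenic cells. Of those 87 UMIs 26.4% came from 1 cell, and the thinned shares of cells with an Il12b UMI, 4.37% [1.04–13.9] and 15.2% [5.94–27.2], had overlapping intervals. The 7 mature DC markers moved from 12678 to 19448 CPM in the same cluster, and their part in the result was not tested. Il18 was found across myeloid clusters, at 44.7 CPM [36.7–53.9] and 32.7 CPM [27.003–39.3] in cDC1-like cells, 25.99 CPM [21.7–30.8] and 44.8 CPM [31.997–60.99] in macrophage-like cells and 20.6 and 35.7 CPM in cluster 8. Il15 was at 46.2 CPM [27.4–73.0] and 66.5 CPM [42.1–99.8] in mature DC-like cells. Il2 was at 45.0 CPM [29.9–65.1] and 65.3 CPM [56.1–75.5] in T-like cells, the chow and the ketogenic value in turn. It was at 32.8 CPM [25.9–40.9] from 78 UMIs and 27.1 CPM [22.4–32.4] from 118 UMIs in ILC2-like cells and at 30.1 and 41.7 CPM in Treg-like cells. The levels were 31.9 CPM [20.4–47.4] and 47.9 CPM [38.7–58.7] in cluster 4 and 47.4 CPM [21.7–90] and 23.5 CPM [13.4–38.1] in γδ T-like cells. Cxcl9, an interferon-gamma target, was at 32.5 CPM [21.7–46.6] in ketogenic macrophage-like cells and at 40.5 CPM [22.1–67.9] from 14 UMIs in ketogenic mature DC-like cells, above all other clusters of that library, where the next was cDC1-like at 10.3 CPM. Cxcl10 was found in nearly every cluster and moved either way: it stood at 62.4 and 114 CPM in macrophage-like cells, 20.5 and 162 CPM in mature DC-like cells and 175 and 110 CPM in Treg-like cells.

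**Figure D4:**
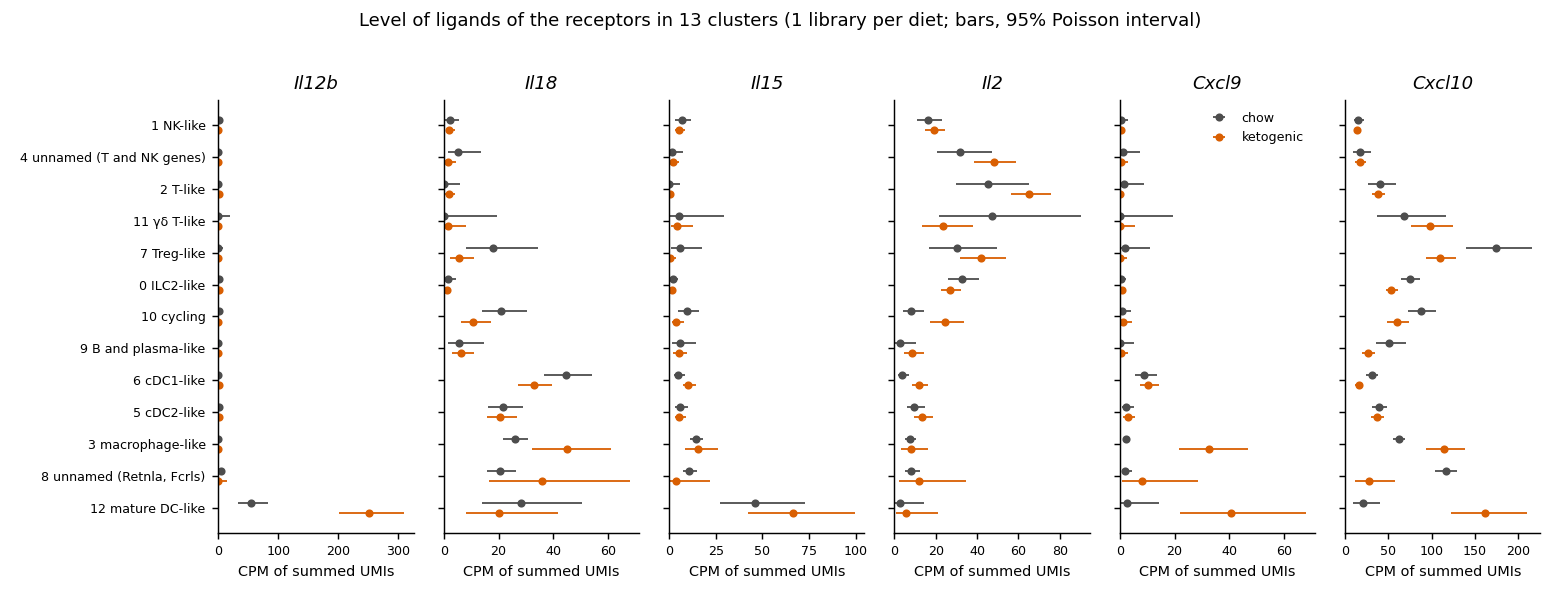
Level of 6 ligand genes (horizontal axis, CPM of summed UMIs) in the 13 clusters (rows), chow in grey and the ketogenic diet in orange, with bars for the 95% Poisson interval. Il12b stands out in the mature DC-like row at 53.9 and 251 CPM, Il2 in lymphoid rows, and Cxcl9 in the ketogenic macrophage-like and mature DC-like rows.

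Other genes of the pathway were taken from lists of 20 genes each, with 8 in the list of factors of other programs, by whether they passed 1.5-fold with at least 20 UMIs. The lists were chosen with earlier results of these data known, so their counts and medians are a description and no independent support. Of receptor partners and kinases, 7 of 20 were higher and 1 lower in T-like cells (median log2 ratio 0.31), against 2 and 2 of 20 in NK-like cells (median -0.02) and 2 and 1 of 19 in cluster 4 (median -0.01). Of all genes, 16.6% were higher and 11.1% lower in T-like cells, 10.5% and 10.4% in NK-like cells and 13.4% and 10.2% in cluster 4, so the NK-like and cluster 4 counts were near those of all genes. The counts were 3 and 0 of 12 in γδ T-like cells (median 0.21), 3 and 0 of 19 in Treg-like cells (median 0.16) and 2 and 0 of 20 in ILC2-like cells (median -0.02). There 17.9% and 12.6%, 17.5% and 10.4%, and 11.0% and 10.1% of all genes were past the fold. Il18rap, the second chain of the interleukin 18 receptor, was the gene lower in T-like cells, at 66.0 and 33.0 CPM, a ratio of 0.5004 [0.343–0.742]. Its ratio was 0.756 [0.640–0.893] in NK-like cells, where that of Il18r1 was 0.991, and 0.834 [0.630–1.11] in cluster 4, where that of Il18r1 was 0.523. Socs3, a feedback inhibitor of cytokine signalling, was higher in T-like cells at 2.20-fold [1.52–3.30], in NK-like cells at 1.81-fold [1.45–2.27] and in cluster 4 at 1.67-fold [1.22–2.31]. Jak2, the kinase bound to the interleukin 12 receptor, was among the lowest of the list in NK-like cells, at 0.637 [0.474–0.858].

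Of transcription factors that act with or beside T-bet and Eomes, 4 of 18 were higher and 2 lower in T-like cells, 0 and 3 of 16 in NK-like cells and 1 and 2 of 16 in cluster 4. The medians were 0.16, 0.09 and 0.05, against 0.07, 0.02 and 0.05 for all genes. With 16.6% and 11.1% of all genes past the fold in T-like cells, 10.5% and 10.4% in NK-like cells and 13.4% and 10.2% in cluster 4, no count is read as a result about the list. Zeb2, a repressor that T-bet induces in terminally differentiated NK and CD8 T cells, was lower in NK-like cells at 0.517 [0.399–0.671], in cluster 4 at 0.377 [0.224–0.632] and in Treg-like cells at 0.555 [0.367–0.846]. In T-like cells Zeb2 stood at 0.510 [0.264–1.03]. Zeb2 is also expressed in macrophages, whose markers were lower in all lymphoid clusters of the ketogenic library as given above, and their part in this result was not tested. Hopx was at 0.526 [0.420–0.659] and Id3 at 0.212 [0.0944–0.443] in NK-like cells. Batf, an AP-1 factor of activated T cells, was at 2.19-fold [1.45–3.46] in T-like cells and 1.85-fold [1.20–2.96] in Treg-like cells.

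Of type 1 effectors, a list that holds Ifng itself, 7 of 17 were higher and 1 lower in T-like cells (median log2 ratio 0.47) and 5 and 0 of 14 in cluster 4 (median 0.43, against 0.05 for all genes). In NK-like cells 2 of 16 were higher and 2 lower (median 0.10, against 0.02). In γδ T-like cells 5 of 10 were higher and 2 lower (median 0.59, against 0.06), where 17.9% and 12.6% of all genes were. In Treg-like cells 4 of 15 were higher and 0 lower (median 0.29, against 0.08), where 17.5% and 10.4% were, and in ILC2-like cells 4 and 1 of 15 (median 0.22, against 0.06), where 11.0% and 10.1% were. Of all genes, 16.6% were higher and 11.1% lower in T-like cells, 13.4% and 10.2% in cluster 4 and 10.5% and 10.4% in NK-like cells, near which the NK-like counts lay. Gzmb, a granzyme of cytotoxic granules, was higher in T-like cells at 3.33-fold [1.90–6.36] and in cluster 4 at 2.82-fold [2.24–3.59]. Gzma was higher in cluster 4 at 2.12-fold [1.65–2.76] and lower in T-like cells at 0.455 [0.319–0.657]. Xcl1, a chemokine that attracts cDC1 cells, was 3.83-fold [2.73–5.52] higher in T-like cells, and Ccl4 in NK-like cells stood at 0.665 [0.640–0.692]. Fasl had 0 UMIs in chow γδ T-like cells and 30.8 CPM in ketogenic ones. Factors of other programs gave no gene past the fold in T-like, Treg-like and γδ T-like cells or cluster 4, out of 3 to 4 with enough UMIs in each. In ILC2-like cells 0 of 6 were higher and 1 lower (median -0.36, against 0.06). With so few genes nothing is read from these counts. In NK-like cells 1 of 3 was lower, Maf at 0.643 [0.516–0.803], and 0 were higher.

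Over the 26 points made by 13 clusters in 2 libraries, and among 10361 genes with at least 100 UMIs, the genes most like Tbx21 by Pearson r of log2(CPM + 20) were Ctsw (r = 0.965), Txk, Cst7, Gm20069 and Nkg7. Those most like Eomes were Prf1 (r = 0.958), Zfp512, Klra3, Klrc1 and Klra4, and those most like Ifng were Sh2d1a (r = 0.972), Ms4a4b, Fasl, Nkg7 and Lck. Within the 8 genes, Tbx21 was closest to Il2rb (r = 0.921) and Ifng (r = 0.908), and Il12rb2 and Il18r1 were least alike (r = 0.405). The points of a library share its depth, so these values describe the profiles and carry no test.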

How the data were processed

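Cells were captured with 10x Genomics chemistry. The deposited matrices hold UMI counts as whole numbers, as their headers declare, with no scaling by the authors to be seen in the values. Per the submitters' processing notes, Cell Ranger, Seurat and the build mm10 were used, and versions and settings are not given in the sources used here. Clusters are those of the authors' deposited table at resolution 0.5. Clustered cells all had under 5% mitochondrial UMIs, and no further filter was applied.

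Counts were summed per cluster and library and scaled to CPM. Intervals are at 95%: exact Poisson for levels, exact conditional for ratios and exact binomial (Clopper-Pearson) for shares of cells. A log2 ratio is ketogenic over chow with 0.5 added to each count, and a count of 0 was bounded by 3 counts per library. Thinning to 1000 UMIs used the exact hypergeometric expectation and left out no cell. Clusters were named where at least 3 of the type's markers were raised 2-fold and its markers stood among the 10 leading genes. Cluster 7 met this for ILC2 (6 of 10 markers raised, 2 leading) and for Treg cells (8 of 8 raised, 4 leading), and was named for the latter. Cluster 4 met this for T cells and was left unnamed because Ly49 receptor genes, which NK cells carry too, also led it. The genes named are the 8 of the set, the 3 highest and 3 lowest ratios of a list, and the 5 genes most like Tbx21, Eomes and Ifng. Members and lists were chosen with earlier results of these data known. Doublets were not removed: scrublet in scanpy 1.11.5 marked 6 chow and 2 ketogenic cells, 0.132% and 0.0356%, too few for the caller to have worked. Python 3.11.15 with numpy 2.4.6, scipy 1.17.1 and pandas 2.3.3 was used, and the calculations were tested on simulated data. Alternatives changed the scaling, the count added, the fold, the UMI minimum, the thinning, the cells kept and a subtraction of free RNA.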

Additional observations from a re-analysis of the deposited data

Results flagged for a closer look

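Cells that the authors' table places in no cluster enter none of the comparisons above and all had more than 5% mitochondrial UMIs. They nevertheless held transcripts of the 8 genes, which is why they are listed: 107 UMIs in 87 chow cells (481 CPM [395–582]) and 127 UMIs in 55 ketogenic cells (723 CPM [603–861]). The same genes summed to 231 CPM in clustered chow cells and 513 CPM in clustered ketogenic cells.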

How the results depend on the processing

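Of 336 alternative values of single diet ratios, 323 kept the sign, and 330 neither left the counting interval nor turned the direction of a ratio past the fold. With 5 added to each count, the log2 ratio of Il12rb2 in T-like cells turned to -0.22 from 1.005, and with 10% free RNA subtracted that of Cxcr3 in ILC2-like cells turned to -0.63 from 1.23. Among cells with at least 2500 UMIs the log2 ratio of Ifng was 1.17 in T-like cells and 1.21 in cluster 4, that of Cxcr3 in T-like cells 1.33 and that of Il12rb2 in cluster 4 1.17. In both clusters this minimum lay above the chow median depth and below the ketogenic one, so a larger share of chow cells was left out. The cause was not tested.

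The 15 pairs past 1.5-fold on the higher side became 5 with 5 added to each count, an alternative chosen after seeing the data, as were leaving out shared barcodes (14 pairs) and the counts with 10% free RNA subtracted (12), over the mean of cells (13) and without the 5% deepest cells (13). At a fold of 2 they became 5, and the 3 on the lower side became 0. With median scaling they were 11 and 3.

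Shares of NK-like cells move with depth. Without thinning, Tbx21 was found in 26.2% of chow and 32.4% of ketogenic cells, Eomes in 16.6% and 28.2%, and both in 4.28% and 8.57%. Thinned to 2000 UMIs the shares were 23.4% and 21.9%, 14.4% and 19.8%, and 3.44% and 3.87%. Cells under 2000 UMIs were left out at that depth. Among clustered cells the lowest depth was 1699 UMIs on chow and 2048 on the ketogenic diet, so only chow cells could be lost. Of the 5 genes most like Tbx21, 2 were shared by Spearman rho, 3 in chow alone and 3 in the ketogenic library alone. For Eomes these were 1, 1 and 3, with 3 at a pseudocount of 5, and for Ifng 1, 2 and 3. At a minimum of 50 UMIs, pairs of a listed gene and a lymphoid cluster past the fold on the lower side went from 4 to 2 for receptor partners, 13 to 6 for transcription factors and 6 to 3 for effectors. The pairs with enough UMIs went from 110 to 88, 94 to 79 and 87 to 68, and of all gene and cluster pairs 10.7% were past it on that side at 20 UMIs and 7.002% at 50.

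No paired analysis was possible because each diet has 1 library. Low counts limit Eomes and Il12rb2 outside NK-like cells and all genes in the 59 chow γδ T-like cells.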
